A study of Mus musculus with 6 samples.

Results

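The lysosome degrades proteins, glycans, lipids and nucleic acids with soluble acid hydrolases that are made in the endoplasmic reticulum. Most of these enzymes receive a mannose 6-phosphate tag in the Golgi, and receptors for that tag carry them to the endosome. Several also need a small cofactor that presents the substrate or stabilises the enzyme. The genes described here were taken by symbol, by a rule that uses no measured value: soluble lysosomal enzymes, their cofactors, and the genes that make or read the mannose 6-phosphate tag, with sulfatases left out. The genes were, however, chosen with earlier results of these data known. They number 44 of the 26898 genes in the deposited expression table, namely 13 proteases, 13 glycan-cleaving enzymes, 6 lipid and acyl hydrolases, 3 phosphatases and nucleases, 4 cofactors and 5 sorting genes.

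RNA was sequenced from primary MEFs (mouse embryonic fibroblasts, connective tissue cells taken from embryos) of the C57BL/6 strain at passage 3. The question was how loss of Kansl1, a scaffold subunit of the NSL histone acetyltransferase complex, changes gene expression. WT cells (samples WT 4, 5 and 8) had the genotype Kansl1 fl/fl, with recombination sites around part of the gene on both alleles. KO cells (samples KO 3, 7 and 10) had Kansl1 fl/fl together with CAG-cre, a Cre that is driven by a ubiquitous promoter and that tamoxifen activates. Both groups, 3 samples each, were grown in 10% serum per the labels (the study's methods for MEFs state more) and exposed to 1 μM tamoxifen for 48 h. Thus KO differed from WT in both Kansl1 and Cre, and their contributions cannot be told apart here.

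Values are given as TPM, a read count per unit of transcript length that adds up to an equal total in every sample, so that levels can be compared between genes. Differences are log2 fold changes of KO over WT on log2(TPM + 1), which understates the change of low genes. A gene was called when its adjusted p-value over all tested genes was under 0.005 and its log2 fold change was above 0.5 or below -0.5 (limma). Genes were tested if WT or KO averaged 1 TPM or more. This was met by 14799 genes and by 43 of the 44 lysosomal genes. The exception was Acp5, the tartrate-resistant acid phosphatase of osteoclasts and macrophages, whose values lay between 0.331 and 1.52 TPM.

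The samples held 17655495 (KO 3) to 27718259 (KO 7) reads assigned to genes, as recovered from the TPM steps. Kansl1 itself was at 26.6 ± 2.06 TPM (SD, n = 3) in WT and 14.6 ± 1.04 TPM (SD, n = 3) in KO, which is 55.1% of WT. A single transcript, Gm23935, took up 15.5% to 25.6% of all TPM, most in WT 8 and KO 3, and these shares overlapped between groups. Of 11 fibroblast markers 0 were called by limma (1 had an unadjusted p-value under 0.05), and their summed level was 10563 to 15527 TPM in WT and 11428 to 15032 TPM in KO. Of 16 macrophage markers 12 were tested, and 2 were called higher (C1qc and Lyz2), or 16.7%, against 1.64% of all tested genes. The other 10 were not called. All 12 had a higher mean in KO. The markers summed to 49.2 to 59.1 TPM in WT and 103 to 202 TPM in KO, where Lyz2 alone was at 53.1, 57.0 and 111 TPM. In 11 of the 12 (91.7%, against 13.3% of all tested genes) every KO sample was above every WT sample. Among them Adgre1 (mean 0.753 TPM in WT, 2.05 TPM in KO) and Mrc1 (0.486 TPM in WT, 1.79 TPM in KO) were tested only through KO. For these genes a higher KO mean follows from the filter. The defining leukocyte markers Ptprc, Itgam and Aif1 were at or under 0.379 TPM in every sample and too low to test, with overlapping groups and higher means in KO. Epithelial markers, mostly Krt18 and Krt19, summed to 65.6 to 72.3 TPM in WT and 80.8 to 95.3 TPM in KO, and muscle markers, mostly Des, to 80.2 to 108 TPM and 70.4 to 86.1 TPM. Markers of endothelial cells summed to at most 5.57 TPM and those of erythroid cells to at most 1.01 TPM. In such bulk samples, more or fewer cells of a type and more or less RNA per cell cannot be told apart.

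The lysosomal enzymes did not move as 1 block in KO MEFs. Of the 43 tested genes, 12 fell and 1 rose. The 12 were Nagpa, Manba, Gm2a, Acp2, Ppt1, Smpd1, Lipa, Fuca1, Pla2g15, Ppt2, Ctsz and Lgmn, and the 1 was Ctsd, the main aspartic protease of the lysosome. The share called lower was 27.9%, against 9.03% of all tested genes. The share called higher was 2.33%, against 1.64% of all tested genes. The median log2 fold change was -0.21 over the 43 genes and -0.07 over all tested genes. With median-of-ratios scaling these were -0.11 and 0.02, and at a minimum of 10 TPM they were -0.07 and -0.05. The KO values all lay below the WT values for 19 of the 43 genes (44.2%, against 29.9% of all tested genes) and all above them for 8 (18.6%, against 13.3%). The remaining 16 overlapped between groups. Without WT 5, 8 of the 43 were called, all lower, while the share called lower over all tested genes was 4.16%.

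**Figure D1:**
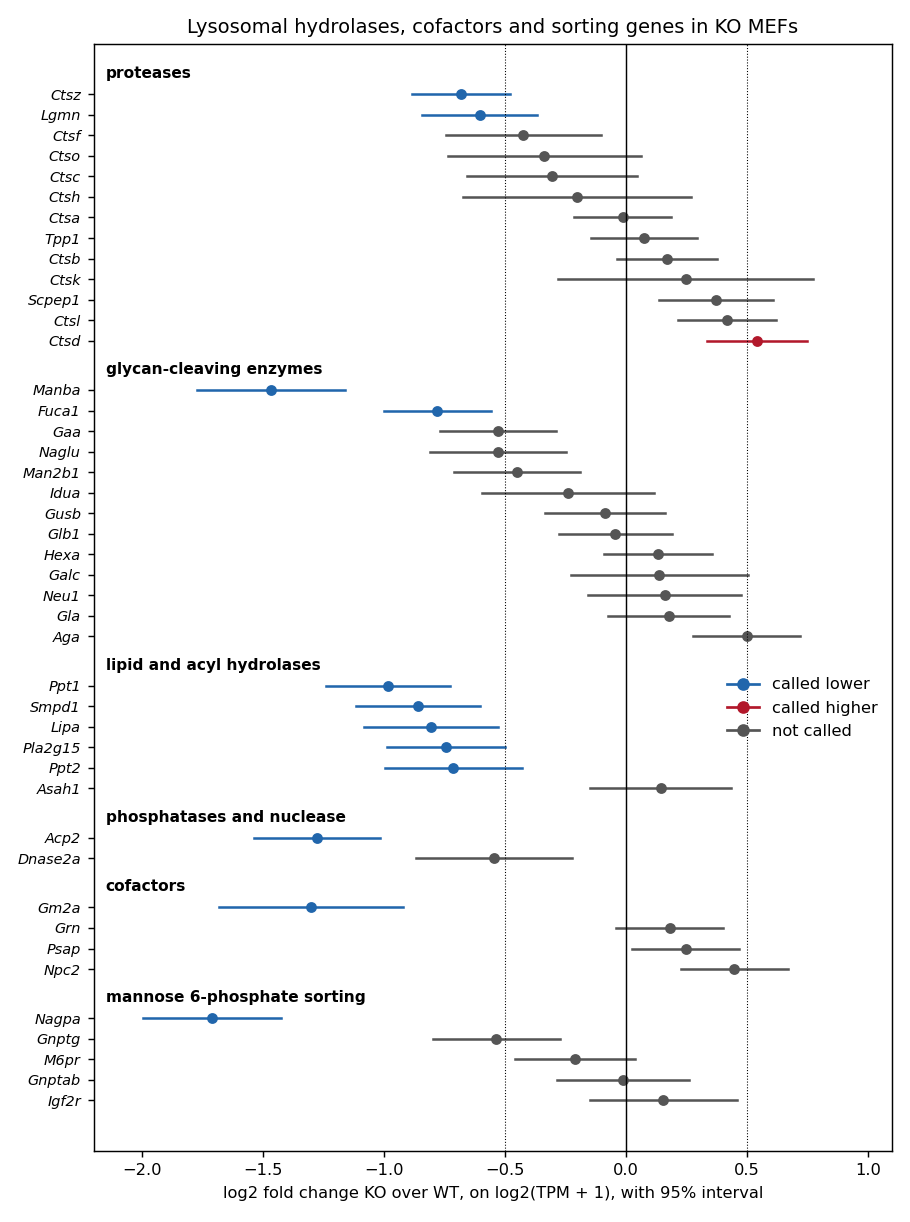
Log2 fold change of KO over WT on log2(TPM + 1) for the 43 tested genes, grouped by role, with 95% intervals from limma. Dotted lines mark the fold thresholds of -0.5 and 0.5. Of the 6 lipid and acyl hydrolases, 5 were called lower, whereas the proteases spread from -0.68 to 0.54.

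Transcription factors of the TFEB family switch on many lysosomal genes through a palindrome in their promoters, the letters TCACGTGA, which contain the shorter E-box CACGTG. Both letter strings read the same on either strand. They were searched in windows of 300 bases, from 250 before to 50 after each start, in the RefSeq promoter table of build GRCm38.p6. Windows were found for 39 of the 44 genes, and not for Aga, Asah1, Ctsb, Ctsh and M6pr. A gene with several starts was counted if any of its windows held a match. Ctsa and Lgmn, for instance, each also have a window without a match. CACGTG was in the windows of 12 of these 39 genes (30.8%), against 8.09% of all 27025 genes with a window. TCACGTGA was in 5 of 39 (12.8%), against 1.12%. Among the 12 genes that fell, 2 held CACGTG (Nagpa and Lgmn) and 0 held TCACGTGA. Among the 25 genes not called, 9 held CACGTG and 4 of them TCACGTGA. Ctsd held both. Neither action of the TFEB family at these matches nor a link between match and call was tested. Of the matching stretches listed, the first 8 hold TCACGTGA and are from Ctsd and 4 genes not called. The last 3 hold only CACGTG and are from genes called lower. Each stretch is 30 bases, 5′ to 3′ on the strand of the gene, with the match in capitals. The Gnptg stretch lies in the windows of 2 starts.
Ctsd, chr7:142387908-142387937, minus strand: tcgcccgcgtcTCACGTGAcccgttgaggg
Ctsa, chr2:164833749-164833778, plus strand: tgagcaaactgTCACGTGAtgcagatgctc
Ctsa, chr2:164833766-164833795, plus strand: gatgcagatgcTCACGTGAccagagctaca
Gla, chrX:134601215-134601244, minus strand: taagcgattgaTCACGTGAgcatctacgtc
Gla, chrX:134601182-134601211, minus strand: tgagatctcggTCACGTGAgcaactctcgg
Gnptg, chr17:25240120-25240149, minus strand: ccggctgtcacTCACGTGAccgtgagaccc
Igf2r, chr17:12769737-12769766, minus strand: gaacgaggacgTCACGTGAgcaggaggcgg
Igf2r, chr17:12769696-12769725, minus strand: gccgactcaggTCACGTGAcgctccgggga
Nagpa, chr16:5204005-5204034, minus strand: ctggcctggaatCACGTGgggcgagcccac
Nagpa, chr16:5203990-5204019, minus strand: gtggggcgagccCACGTGaccggagcacca
Lgmn, chr12:102439124-102439153, minus strand: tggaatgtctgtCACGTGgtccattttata

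The 2 genes with the largest falls are shown with the 250 bases before their starts. That of Nagpa holds 1 CACGTG, which begins 10 bases before the start, besides the second match of Nagpa, which begins at base 6 after the start. That of Manba holds none.
Nagpa, chr16:5204013-5204262, minus strand: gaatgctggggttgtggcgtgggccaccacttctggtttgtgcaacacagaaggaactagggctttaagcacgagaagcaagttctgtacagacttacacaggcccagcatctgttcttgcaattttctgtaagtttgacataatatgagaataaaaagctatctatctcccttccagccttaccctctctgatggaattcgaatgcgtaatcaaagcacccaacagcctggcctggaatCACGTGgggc
Manba, chr3:135485361-135485610, plus strand: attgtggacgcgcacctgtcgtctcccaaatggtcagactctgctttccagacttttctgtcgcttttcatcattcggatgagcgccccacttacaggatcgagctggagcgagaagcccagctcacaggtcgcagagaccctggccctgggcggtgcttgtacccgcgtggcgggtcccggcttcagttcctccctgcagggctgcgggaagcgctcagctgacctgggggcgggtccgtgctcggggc
A match is a run of letters and no measurement of binding.

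Among the 5 genes of the mannose 6-phosphate route, 1 fell and 4 were not called, where 9.03% of all tested genes fell. Tagging starts with GlcNAc-1-phosphotransferase, whose catalytic subunits are encoded by Gnptab and whose gamma subunit is encoded by Gnptg. Nagpa, the uncovering enzyme, then removes the covering sugar so that the phosphate can be bound. Nagpa (chr16:5195289-5204012, minus strand) was at 15.4, 18.0 and 15.5 TPM in WT and at 3.71, 4.57 and 4.58 TPM in KO. No KO sample came near the lowest WT sample. The mean was 26.3% of WT, the lowest of the 43 tested genes (log2 fold change -1.71, SE 0.13, adjusted p-value 0.000137), and Nagpa remained called when any 1 sample was left out.

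Neither phosphotransferase subunit was called, and the difference between them was not tested. Gnptg was at 10.8, 10.5 and 10.0 TPM in WT and at 7.34, 6.20 and 7.22 TPM in KO. The groups did not overlap, but the adjusted p-value of 0.00852 missed the threshold (log2 fold change -0.54, SE 0.12). Gnptg passed where the adjusted p-value had to be under 0.05. Of the exon bases of Gnptg, 49.5% are shared with Unkl on the opposite strand, which was at 8.51 TPM, and the use of strand in counting was not stated. Gnptab was at 26.9, 25.5 and 21.9 TPM in WT and at 21.6, 26.2 and 25.6 TPM in KO. These values overlapped, with a log2 fold change of -0.01 and an interval from -0.29 to 0.26.

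Both receptors were expressed well above the tagging enzymes. The cation-independent receptor Igf2r was at 191, 241 and 207 TPM in WT and at 198, 268 and 247 TPM in KO. The cation-dependent receptor M6pr was at 125, 111 and 104 TPM in WT and at 87.7, 105 and 101 TPM in KO. For both the groups overlapped. Their log2 fold changes were 0.15 (interval -0.15 to 0.46) and -0.21 (interval -0.46 to 0.04).

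Of the 6 lipid and acyl hydrolases 5 fell, beside the 9.03% called lower over all genes. Without WT 5 the calls of Lipa, Pla2g15 and Ppt2 ended and 2 of 6 remained. Without KO 3, and likewise without KO 10, 3 of 6 remained, and with all genes tested 1 (Ppt1). The shares over all tested genes there were 4.16%, 4.39%, 5.31% and 1.06%. Ppt1, a thioesterase that takes palmitate off proteins (chr4:122836242-122859175, plus strand), was at 39.6, 33.2 and 32.0 TPM in WT and at 16.3, 18.2 and 16.8 TPM in KO. That is 49.0% of WT (log2 fold change -0.98, SE 0.11, adjusted p-value 0.000487). A stretch of 129 exon bases of Ppt1, or 3.5%, is shared with Cap1 on the opposite strand, which was at 442 TPM. Its relative Ppt2 (chr17:34616662-34628510, minus strand) was lower throughout, at 6.42, 6.50 and 7.14 TPM in WT and at 3.42, 3.83 and 3.81 TPM in KO. Of its exons, 36.6% are shared with Gm20460 on the same strand, which was listed at 0 TPM, so that reads of the shared part cannot be assigned by strand. Its call rested on few reads, from 65 to 177 per sample. Ppt2 (log2 fold change -0.71, SE 0.13, adjusted p-value 0.003) was not called once any of the 6 samples was left out, with log2 fold changes from -0.74 to -0.67.

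Smpd1, the acid sphingomyelinase, splits sphingomyelin into ceramide and phosphocholine. It lies at chr7:105554360-105558389 on the plus strand. It was at 40.4, 39.2 and 37.9 TPM in WT and at 18.3, 23.6 and 21.9 TPM in KO (log2 fold change -0.86, SE 0.11, adjusted p-value 0.000844). The highest KO sample was below the lowest WT sample by a wide margin compared with the spread within groups. Asah1, the acid ceramidase of the following step, was not called. Its values were 288, 219 and 206 TPM in WT and 247, 271 and 261 TPM in KO, so that the KO samples lay within the WT range (log2 fold change 0.14, interval -0.15 to 0.43).

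Lipa, the acid lipase that frees cholesterol and fatty acids from esters, lies at chr19:34492318-34527474 on the minus strand. It was at 21.3, 21.1 and 18.4 TPM in WT and at 9.63, 11.9 and 12.1 TPM in KO (log2 fold change -0.81, SE 0.12, adjusted p-value 0.00157). Pla2g15, the lysosomal phospholipase A2 (chr8:106150399-106164715, plus strand), was at 32.0, 34.0 and 28.5 TPM in WT and at 17.2, 19.2 and 18.7 TPM in KO (log2 fold change -0.75, SE 0.11, adjusted p-value 0.00128). Neither gene overlapped between groups. Lipa was no longer called without WT 5, where its log2 fold change was -0.78, and Pla2g15 was not called without KO 3, KO 10 or WT 5. With each of the 6 samples left out in turn, the log2 fold change of Pla2g15 lay between -0.81 and -0.69.

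**Figure D2:**
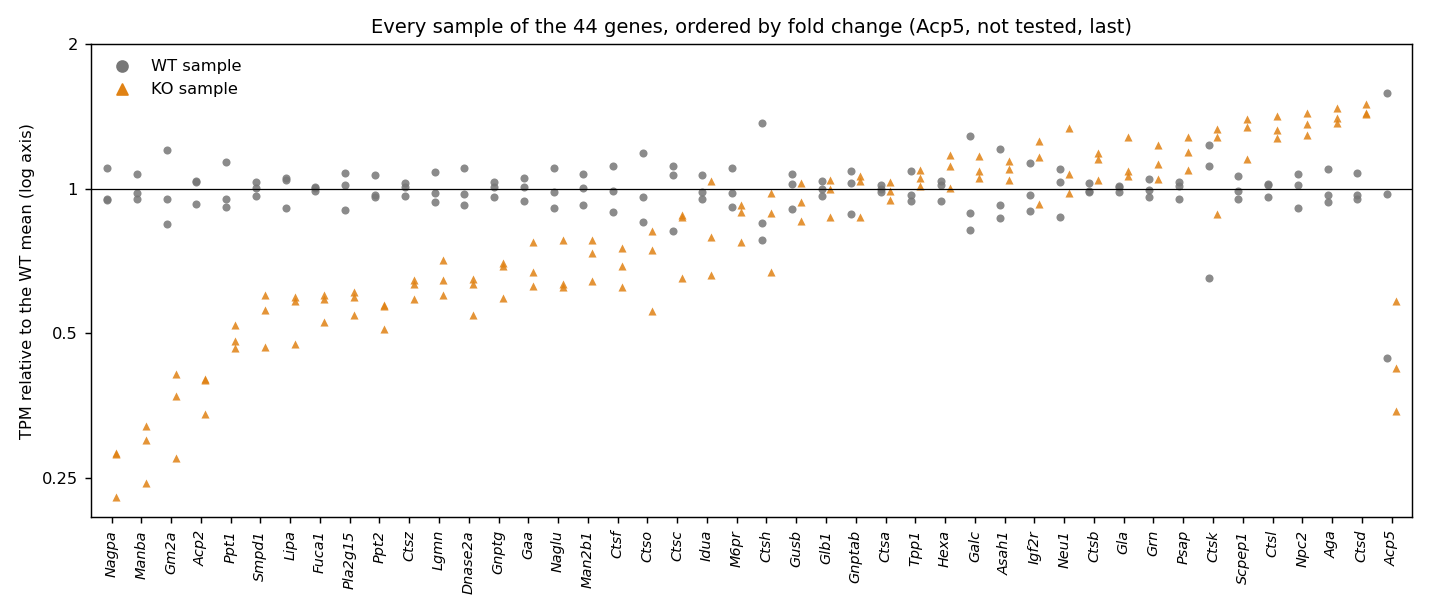
TPM of each sample divided by the WT mean of that gene, on a log axis, for the 43 tested genes ordered by log2 fold change from the largest fall to the largest rise, with Acp5, not tested, placed last. Circles are the 3 WT samples and triangles the 3 KO samples. From Nagpa to Ctso all triangles lie below all circles, and in the last 5 tested genes, from Scpep1 to Ctsd, all triangles lie above them.

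The glycan-cleaving enzymes were mostly not called: 2 of 13 fell (15.4%, against 9.03% of all tested genes) and 11 did not pass. In voom on recovered reads 4 fell (14.5% of all tested genes fell there), as did 4 where the adjusted p-value had to be under 0.05 (16.6% of all tested genes). Manba, which removes the last mannose of N-glycan remnants, was at 9.13, 8.31 and 8.08 TPM in WT and at 2.54, 2.72 and 2.07 TPM in KO. The KO mean was 28.8% of WT (log2 fold change -1.47, SE 0.14, adjusted p-value 0.000222) and the groups were far apart. Fuca1, which removes fucose (chr4:135920735-135940311, plus strand), was at 37.0, 36.8 and 36.4 TPM in WT and at 19.3, 21.6 and 22.1 TPM in KO. The WT samples lay within a narrow band and the KO samples well below it (log2 fold change -0.78, SE 0.10, adjusted p-value 0.000689). Both calls held when any 1 sample was left out.

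Of the 11 enzymes of this role not called, the largest differences were in opposite directions. The acid alpha-glucosidase Gaa, which degrades glycogen, was at 88.9, 99.6 and 95.2 TPM in WT and at 59.4, 73.1 and 63.5 TPM in KO. Its KO values all lay below WT, and its adjusted p-value was 0.0058 (log2 fold change -0.53). Naglu, an enzyme of heparan sulfate breakdown, had about the same log2 fold change of -0.53 with an adjusted p-value of 0.0126. Aga, which splits the sugar from asparagine, went the other way, from 74.2, 65.5 and 63.3 TPM in WT to 95.02, 99.5 and 92.8 TPM in KO. Aga missed both thresholds narrowly (log2 fold change 0.498, adjusted p-value 0.00522). The other 8 lay between -0.45 (Man2b1) and 0.17 (Gla), among them Glb1, Gusb, Hexa, Galc, Neu1 and Idua.

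Of the 3 phosphatases and nucleases 2 were tested, and 1 of them, Acp2, fell, beside the 9.03% called lower over all genes. Acp2, the lysosomal acid phosphatase (chr2:91202885-91214098, plus strand), was at 18.4, 18.4 and 16.5 TPM in WT and at 6.04, 7.10 and 7.13 TPM in KO. This was 38.0% of WT, with no overlap (log2 fold change -1.28, SE 0.12, adjusted p-value 0.000212), and it was called with any 1 sample left out. Part of its exons, 12.6%, is shared with Ddb2 on the opposite strand, a gene at 0.95 TPM. Dnase2a, the acid DNase, was at 4.01, 4.53 and 3.80 TPM in WT and at 2.25, 2.66 and 2.60 TPM in KO. It did not overlap between groups, and its adjusted p-value was 0.0202. Dnase2a was called lower in voom on recovered reads and where the adjusted p-value had to be under 0.05.

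Of the 4 cofactors 1 fell and 3 were not called, where 9.03% of all tested genes fell. Differences between the cofactors were not tested. The gene that fell was Gm2a, the activator that lifts GM2 ganglioside out of the membrane for hexosaminidase A. It lies at chr11:55098115-55113029 on the plus strand. It was at 13.5, 9.42 and 10.6 TPM in WT and at 3.06, 4.60 and 4.13 TPM in KO, or 35.2% of WT (log2 fold change -1.30, SE 0.17, adjusted p-value 0.00076). Gm2a was still called with any 1 sample left out, but not with all genes tested. The gene for the hexosaminidase A alpha chain that it serves, Hexa, was not called, with a log2 fold change of 0.13.

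The other 3 cofactors had higher means in KO and none was called. Psap, the precursor of the saposins, was the most abundant of all 44 genes, at 590.0, 601 and 553 TPM in WT and at 634, 744 and 693 TPM in KO. Npc2, which moves cholesterol out of the lysosome, was at 121, 115 and 103 TPM in WT and at 146, 162 and 154 TPM in KO. For both, every KO sample was above every WT sample. The log2 fold changes were 0.25 for Psap (adjusted p-value 0.0929) and 0.45 for Npc2 (adjusted p-value 0.00911). Grn, the precursor of the granulins, was at 134, 145 and 138 TPM in WT and at 145, 172 and 156 TPM in KO. KO 3 lay just under the highest WT sample, and the log2 fold change was 0.18 (interval -0.04 to 0.40).

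Of the 13 proteases 1 rose, 2 fell and 10 did not pass. These are 7.69% against 1.64% of all tested genes for the rise and 15.4% against 9.03% for the falls, with so few genes that a single call moves the share widely. Ctsz, a cysteine carboxypeptidase (chr2:174427493-174439039, minus strand), was at 222, 227 and 213 TPM in WT and at 130, 140 and 142 TPM in KO. The KO mean was 62.2% of WT, with little spread in either group (log2 fold change -0.68, SE 0.09, adjusted p-value 0.000783). Lgmn, the asparagine-specific protease that trims other cathepsins (chr12:102394084-102439813, minus strand), was at 63.7, 57.8 and 55.3 TPM in WT and at 38.0, 35.5 and 41.9 TPM in KO. The groups did not overlap (log2 fold change -0.60, SE 0.11, adjusted p-value 0.00296). Leaving out any 1 of the 6 samples ended the call of Lgmn, with log2 fold changes from -0.67 to -0.55, whereas that of Ctsz held. The call of Lgmn also ended with median-of-ratios scaling (log2 fold change -0.501), without a variance trend and with all genes tested.

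Ctsd was the 1 gene that rose. It encodes cathepsin D and lies at chr7:142375911-142388038 on the minus strand. It was at 231, 209 and 205 TPM in WT and at 309, 323 and 308 TPM in KO. The KO mean was 146% of WT, and the lowest KO sample was well above the highest WT sample (log2 fold change 0.54, SE 0.09, adjusted p-value 0.00253). The fold change is just past the threshold of 0.5. Of the exons of Ctsd, 34.4% are shared with Gm49369 on the same strand, which was listed at 0 TPM. The call ended without KO 3, KO 7, KO 10, WT 5 or WT 8, where the log2 fold change was still at least 0.51, and held without WT 4. The macrophage markers given above were also higher in sum in KO, and their part in this and in the higher means of some other abundant genes was not tested.

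Of the other proteases that averaged 100 TPM or more, Ctsz was called lower, as given above. Ctsl, Scpep1 and Ctsb were not called. Ctsl, an endopeptidase, was at 178, 176 and 166 TPM in WT and at 221, 246 and 230 TPM in KO (log2 fold change 0.42, adjusted p-value 0.00855). Scpep1, a serine carboxypeptidase, was at 221, 238 and 213 TPM in WT and at 258, 313 and 301 TPM in KO (log2 fold change 0.37, adjusted p-value 0.0271). Ctsb was at 231, 241 and 232 TPM in WT and at 244, 270 and 278 TPM in KO (log2 fold change 0.17, adjusted p-value 0.208). In all 3 the KO samples lay above the WT samples.

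The rest of the proteases not called lay between -0.42 (Ctsf) and 0.25 (Ctsk), with Ctsa, the protective protein of beta-galactosidase and neuraminidase, at -0.01 and Tpp1 at 0.07. Ctsk, a collagen-degrading cathepsin, varied widely within groups, at 40.6, 76.7 and 69.4 TPM in WT and at 55.0, 79.9 and 82.9 TPM in KO. Its low value in WT 4 went along with the lowest Col1a1 of the 6 samples, at 3080 TPM against 4195 to 5809 TPM in the others. Without WT 4 the log2 fold change of Ctsk was -0.03.

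The lysosomal genes were also described by their level. Of the 11 that averaged 100 TPM or more, the KO samples all lay above the WT samples in 6 (Psap, Ctsd, Scpep1, Ctsb, Ctsl and Npc2), against 16.4% of all genes at that level. They all lay below in 1 (Ctsz), against 10.6%. Ctsz was also the 1 of these 11 called lower, against 0.828% of all genes at that level. Of the 32 tested lysosomal genes under 100 TPM, the KO samples all lay above in 2 (Aga and Gla), against 13% of all genes under 100 TPM. They all lay below in 18, against 31.6%, and 11 were called lower, against 9.76%. The median log2 fold change was 0.18 in the 11 abundant genes and 0.03 in all 1208 genes at that level. The median was -0.31 for the 23 genes from 10 to 100 TPM, where all genes had -0.06, and -0.54 for the 9 tested genes under 10 TPM, where all genes had -0.13. These medians describe the genes and were not tested.

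**Figure D3:**
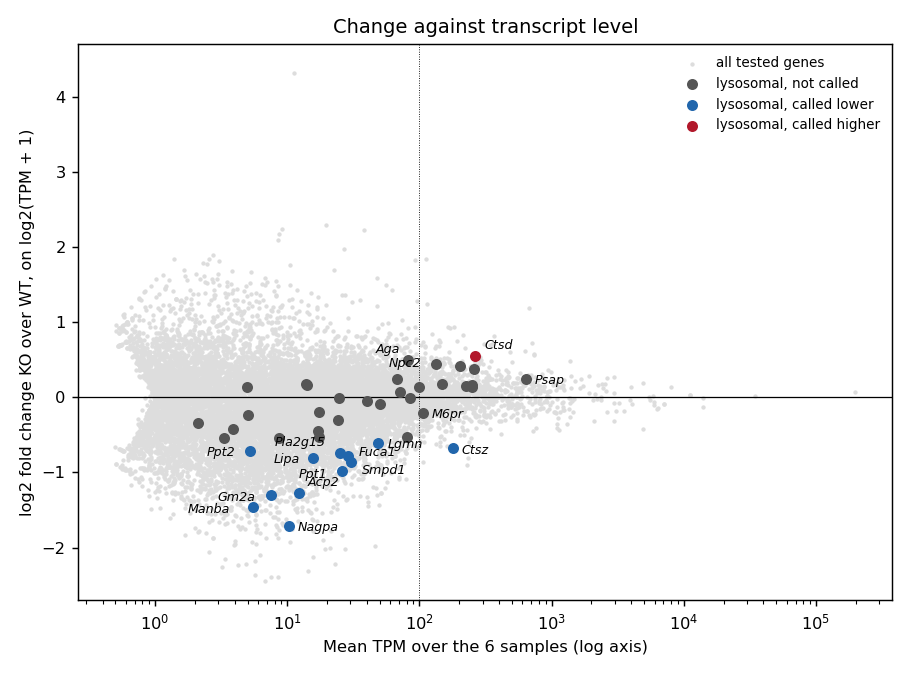
Log2 fold change of KO over WT against the mean TPM over the 6 samples (log axis), with all 14799 tested genes in grey and the 43 lysosomal genes in colour. The dotted line marks 100 TPM. To its right 9 of 11 lysosomal genes lie above zero, as do 687 of all 1208 genes there. To its left lie 11 of the 12 lysosomal genes called lower, as do 1327 of all 1337 genes called lower.

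Whether the summed lysosomal transcript level separated the groups depended on the scaling. Over all 44 genes it was 3557, 3572 and 3320 TPM in WT and 3432, 3945 and 3754 TPM in KO, and these ranges overlapped, with a KO mean of 106.5% of WT. The lowest sum of each group was in the sample with the largest share of Gm23935. With Gm23935 left out of the total, an alternative chosen after seeing the data, the sums were 4209 to 4388 in WT and 4615 to 4684 in KO, without overlap and with a KO mean of 107.7% of WT. With median-of-ratios scaling they were 3246 to 3437 in WT and 3754 to 3913 in KO, again without overlap, and the KO mean was 114.4% of WT. The 12 genes called lower were chosen on these samples, so that a lower sum in KO follows from the choice, and its size is given as a description. They summed to 503 ± 20.7 TPM (SD, n = 3) in WT and 286 ± 16.0 TPM (SD, n = 3) in KO. They made up 14.3% to 14.6% of the lysosomal sum in WT and 7.41% to 7.92% in KO. The 5 most abundant genes, Psap, Ctsd, Scpep1, Ctsb and Asah1, made up 42.2% to 43.9% in WT and 48.7% to 49.3% in KO. By role, the KO mean was 42.4% of WT for phosphatases and nucleases, 89.5% for lipid and acyl hydrolases, 94.2% for glycan-cleaving enzymes, 98.2% for sorting genes, 111% for proteases and 119% for cofactors. The lipid and acyl hydrolases summed to 370 ± 50.7 TPM (SD, n = 3) in WT and 331 ± 17.9 TPM (SD, n = 3) in KO. Most of that sum was Asah1, which was not called, with means of 238 TPM in WT and 260 TPM in KO.

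**Figure D4:**
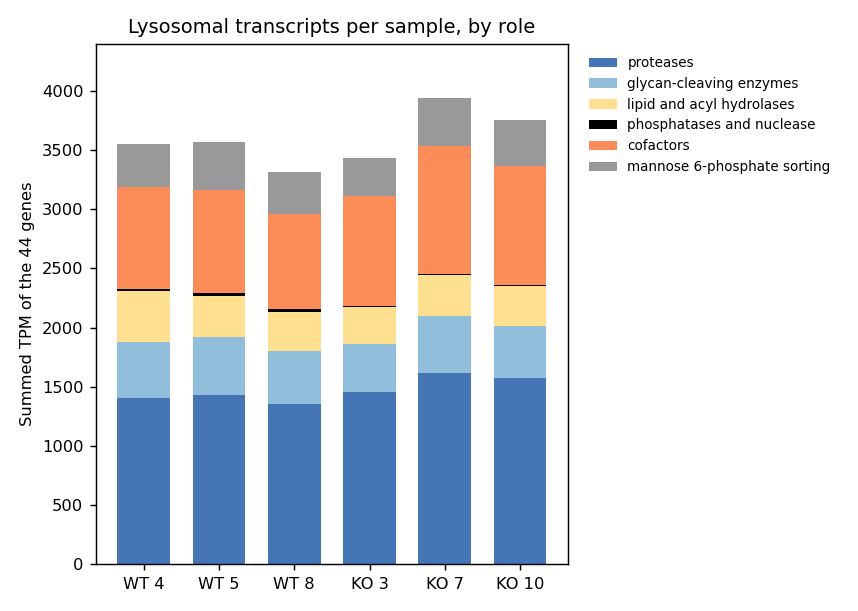
Summed TPM of the 44 genes in each sample, stacked by role. The bars reach 3320 to 3572 TPM in WT and 3432 to 3945 TPM in KO, and proteases and cofactors make up most of each bar.

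Lists of related genes that hold none of these members were read from the same fit. Of 24 tested among 28 other soluble lysosomal proteins, 9 fell and 15 did not pass, beside the 9.03% called lower over all genes, with a median log2 fold change of -0.33. Without KO 10, and likewise without WT 5, 5 were called, where 5.31% and 4.16% of all tested genes were called lower. The 5 largest falls were in Fuca2, a second fucosidase (-1.38), Siae, a sialic acid esterase (-1.37), Ggh, the gamma-glutamyl hydrolase of folates (-1.23), Smpdl3a (-1.08) and Man2b2, a mannosidase (-1.08). Siae, for instance, was at 2.47, 2.30 and 2.43 TPM in WT and at 0.301, 0.374 and 0.277 TPM in KO. It passed the minimum of 1 TPM only through WT, so that a lower KO mean follows from the filter. Ctss, a cathepsin of macrophages, was not called, at 2.27, 2.02 and 1.94 TPM in WT and at 4.86, 4.48 and 9.73 TPM in KO. The highest macrophage sum was also in KO 10, and its part in this difference was not tested.

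Of 10 other genes of lysosomal sorting, 3 fell and 7 did not pass, beside the 9.03% called lower over all genes. The 3 were Ap1b1, a subunit of the AP-1 coat at the trans-Golgi (-0.97), Lrpap1, a chaperone of lipoprotein receptors (-0.82), and Sort1, the sorting receptor sortilin (-0.68). Gga2, an adaptor that binds the receptor tails, went the other way without a call, at 12.04, 16.6 and 13.4 TPM in WT and at 19.1, 26.4 and 21.8 TPM in KO (log2 fold change 0.64, adjusted p-value 0.0125). The cathepsin inhibitors Cst3, Cstb and Serpinb6a were tested and 0 were called, with log2 fold changes between -0.19 and 0.09 and 0 with an unadjusted p-value under 0.05. Of the 4 genes of the TFEB family, 3 were tested and 0 were called by limma at these thresholds, with 2 (Tfeb and Tfe3) at an unadjusted p-value under 0.05. Tfeb was at 2.16, 2.70 and 2.60 TPM in WT and at 0.461, 1.17 and 0.968 TPM in KO, with no overlap and an adjusted p-value of 0.00917. With a KO mean of 0.865 TPM it was tested only through WT, so that a lower KO mean follows from the filter. Tfe3 was at 16.9, 19.6 and 17.8 TPM in WT and at 21.3, 24.6 and 24.1 TPM in KO, with an adjusted p-value of 0.041. Tfeb passed both thresholds in voom on recovered reads.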

How the data were processed

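RNA from 3 WT and 3 KO MEF cultures was sequenced, and the samples were grouped by their titles. The authors aligned reads to mouse genome build mm10 with STAR. The submitters' processing notes also list Bowtie 0.12.2, with no role. The counting program, its use of strand and other versions are not given in the sources used here. The authors deposited TPM per gene, 1 column per sample. They also deposited a log2 fold change and an adjusted p-value per gene, which hold the study's own comparison and were not used. All 26898 genes matched GENCODE M21, the source of gene positions and exon overlaps. Multiplying TPM by exon length gave whole reads for 100.0% of the low values checked, at a tolerance of 0.05. This gives reads assigned to genes, and TPM alone carries no depth.

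WT and KO were compared with limma 3.58.1 (R 4.3.3) in a two-sided test of log2(TPM + 1) values, with trended variance and Benjamini-Hochberg adjustment over all 14799 tested genes. The code was tested on simulated data. The study gives n as 3 mice per group. The members and lists were chosen with earlier results of these data known. Values in every sample are given for called members, the 5 most abundant members, cofactors and sorting genes. They are also given for a few others, chosen after their values were seen. Other members are given by range, with the largest differences per role, and of the other lists the largest 5 calls are named, with further genes chosen after their values were seen. The alternatives were all genes tested, a minimum of 10 TPM, a pseudocount of 0.1, median-of-ratios scaling, no variance trend, voom on recovered reads, an adjusted p-value under 0.05, and leaving out each sample.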

Additional observations from a re-analysis of the deposited data

How the results depend on the processing

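Nagpa, Manba, Acp2, Ppt1, Fuca1 and Ctsz were called lower under every alternative that gave a value, and Gm2a and Smpd1 under all but the test of all genes. Testing all 26898 genes left 6 of the 44 genes called, 6 lower and 0 higher, and 4 of the other soluble lysosomal proteins, of which 5 to 8 were called with a sample left out. Called higher were 4 with median-of-ratios scaling (Aga, Ctsd, Ctsl and Npc2), 0 without a variance trend and 2 in voom on recovered reads (Aga and Ctsd). Over all 14799 tested genes, 473, 187 and 433 were called higher at these settings, against 242 at the main setting. Called lower were 15 in voom and 16 where the adjusted p-value had to be under 0.05. The shares over all tested genes there were 14.5% and 16.6%. Leaving out each sample gave 8 to 12 calls, of which 8 to 10 lower and 0 to 2 higher, and medians from -0.271 to -0.134. At a minimum of 10 TPM the median was -0.066, where that over all genes was -0.049. Of the TFEB family, 1 gene was called in voom and 1 where the adjusted p-value had to be under 0.05. The direction turned in 6 genes that were not called. With median-of-ratios scaling, Gusb was at 0.015, Glb1 at 0.058, Gnptab at 0.087 and Ctsa at 0.09. In voom Gnptab was at 0.008 and Ctsa at 0.004. Over the fits with a sample left out, Ctsh ranged from -0.35 to 0.038 (highest without WT 4), Ctsk from -0.03 (without WT 4) to 0.432, Glb1 from -0.097 to 0.03 (highest without KO 3), Ctsa from -0.045 to 0.017 (highest without KO 10) and Gnptab from -0.097 to 0.071 (highest without KO 3, and also above zero without WT 4 or WT 5). The cause was not tested. Counted over all genes, calls were 1579 at the main setting, 341 with all genes tested, 2585 in voom, 3147 at an adjusted p-value under 0.05 and 758 to 1081 with a sample left out. The share of lower among all calls was 84.7%, and 75.3% under median-of-ratios scaling. That scaling took the median over all genes from -0.07 to 0.02. No paired analysis was possible because no replicate number occurs in both groups. With 3 samples per group, log2 fold changes near 0.5 cannot be placed on either side of the threshold, and the tested lysosomal genes under 10 TPM rest on as few as 51 reads in a sample.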
